A study of Mus musculus with 8 samples.

Results

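The corticotropin-releasing hormone system was followed through 7 genes, chosen by symbol from the 55523 entries of the gene count table: the binding protein *Crhbp*, the receptors *Crhr1* and *Crhr2*, and the ligands *Crh*, *Ucn*, *Ucn2* and *Ucn3*. Each symbol matched 1 entry, and none of these entries shared its locus with another gene. RNA was sequenced from isolated gonadotropes of mice in 4 male and 4 female samples, and the sexes were compared. All samples came from Ad4BP-BAC-EGFP mice, in which regulatory regions of *Nr5a1* (also called Ad4BP) drive EGFP, and EGFP-expressing cells were collected from the pituitary gland by fluorescence-activated cell sorting. No treatment, no other allele and no age was given for either sex. Nothing in the labels said whether each sample came from its own animal or a pool, so that p-values measured only the spread between these samples. The system was chosen with its values in males and females already known. For that reason the values of the 7 genes are given as a description, with no p-value.

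Corticotropin-releasing hormone and the urocortins are related peptides that act through a pair of G protein-coupled receptors, CRHR1 and CRHR2, which raise cyclic AMP in the target cell. In the pituitary gland the best known target is the corticotrope, where CRHR1 drives the production and release of ACTH from its precursor POMC. The binding protein encoded by *Crhbp* is secreted, binds corticotropin-releasing hormone and urocortin 1, and keeps them from the receptors.

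The total count was between 18774578 and 31302588 per sample. Levels are given as CPM, the counts of a gene per 1000000 counts of its library, after edgeR's TMM factors over the 8 samples had adjusted the library sizes, and the limit of detection was set at 3 counts in a library, which was between 0.0918 and 0.147 CPM. This limit covers counting error only. All 5 gonadotrope markers were present in every sample. Their summed level was 21516 to 34770 CPM in females and 67400 to 76488 CPM in male replicates 2 to 4. Of these 5 singly, *Fshb* alone was higher in each of these males than in any female, and *Nr5a1* alone was higher in each female. *Lhb*, *Cga* and *Gnrhr* overlapped between the sexes. Male replicate 1 stood apart, since its *Nr5a1* level was 16.4 CPM where male replicates 2 to 4 had 590 to 794 CPM. The study excluded it, and it is given separately below. *Pomc*, the main product of corticotropes, was also high in every sample, at 12385 to 22159 CPM in females and 10061 to 28871 CPM in male replicates 2 to 4, although cells had been sorted for EGFP. Markers of stem cells had a higher summed level in every female (340 to 583 CPM) than in male replicates 2 to 4 (235 to 290 CPM), and 3 of the 4 did so singly. The sum of the stromal markers was also higher in every female (99.3 to 146 CPM against 85.0 to 98.1 CPM), but of these 4 markers singly this held for *Col1a1* alone. Those of somatotropes were higher in these males (64453 to 143754 CPM against 12413 to 58215 CPM), as were those of thyrotropes (276 to 378 CPM against 84.7 to 223 CPM). The sum for somatotropes was nearly all *Gh*, and *Ghrhr* overlapped between the sexes. Of the thyrotrope markers, *Tshb* and *Trhr* were higher in each of these males, whereas *Dio2* was higher in each female (63.2 to 138 CPM against 38.5 to 50.001 CPM). The part of these cell types in the results below was not tested.

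*Crhbp* (ENSMUSG00000021680) lies on the minus strand of chromosome 13, at chr13:95431371-95444924 in GRCm38 with the GENCODE M21 annotation, and its longest transcript has 7 exons. Because it was the member that separated males from females, the stretch of 157 bases just outside its gene model, chr13:95444925-95445081 on the minus strand, is shown from the RefSeq promoter table (GRCm38.p6). The capitals mark AGGTCA, the half-site that many nuclear receptors recognise.
Crhbp: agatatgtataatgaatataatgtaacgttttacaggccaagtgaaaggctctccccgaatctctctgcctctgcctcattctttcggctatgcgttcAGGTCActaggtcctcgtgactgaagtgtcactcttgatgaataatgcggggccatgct
The table held a window of 300 bases, from 250 before to 50 after the start, for 5 of the 7 genes; *Crh* and *Ucn2* had no entry. AGGTCA, searched on both strands, was found once in the window of *Crhbp*, beginning 152 bases before the RefSeq start, and in none of the other 4. Of the 32851 promoters in the table, 16.3% held these letters. The longer form AAGGTCA, the element bound by NR5A1, contains AGGTCA and was found in none of the 5 windows and in 4.72% of all promoters. The cyclic AMP response element TGACGTCA was found in the window of *Ucn*, beginning 44 bases before the start, and in 1.79% of all promoters. A match of letters is a description and not a binding site.

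*Crhbp* had counts in every female and was listed at 0 in every male. The 4 female replicates had 147, 394, 123 and 332 counts, which were 6.29, 19.3, 3.76 and 14.4 CPM. The 4 male replicates, replicate 1 included, each had 0 counts. The samples of both sexes therefore did not overlap. The mean in females was 10.9 ± 7.20 CPM (SD, n = 4), and the highest female, replicate 2, was 5.14-fold above the lowest, replicate 3. If a male library is taken to hold fewer than 3 counts, the mean of the females was at least 89.5-fold higher than the mean of this limit in male replicates 2 to 4, or at least 6.48 on the log2 scale. The lowest female alone was at least 27.4-fold above the highest limit of these males. Against the limit of male replicate 1, the mean of the females was at least 83.1-fold higher. These are bulk samples, in which fewer cells of a type and less RNA per cell cannot be told apart. Among the 7 members, *Crhbp* was the only one whose samples did not overlap between the sexes. Over the 20152 genes tested, 22.5% did not overlap, and in 10.9% every female was above every male and in 11.6% the reverse held.

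**Figure D1:**
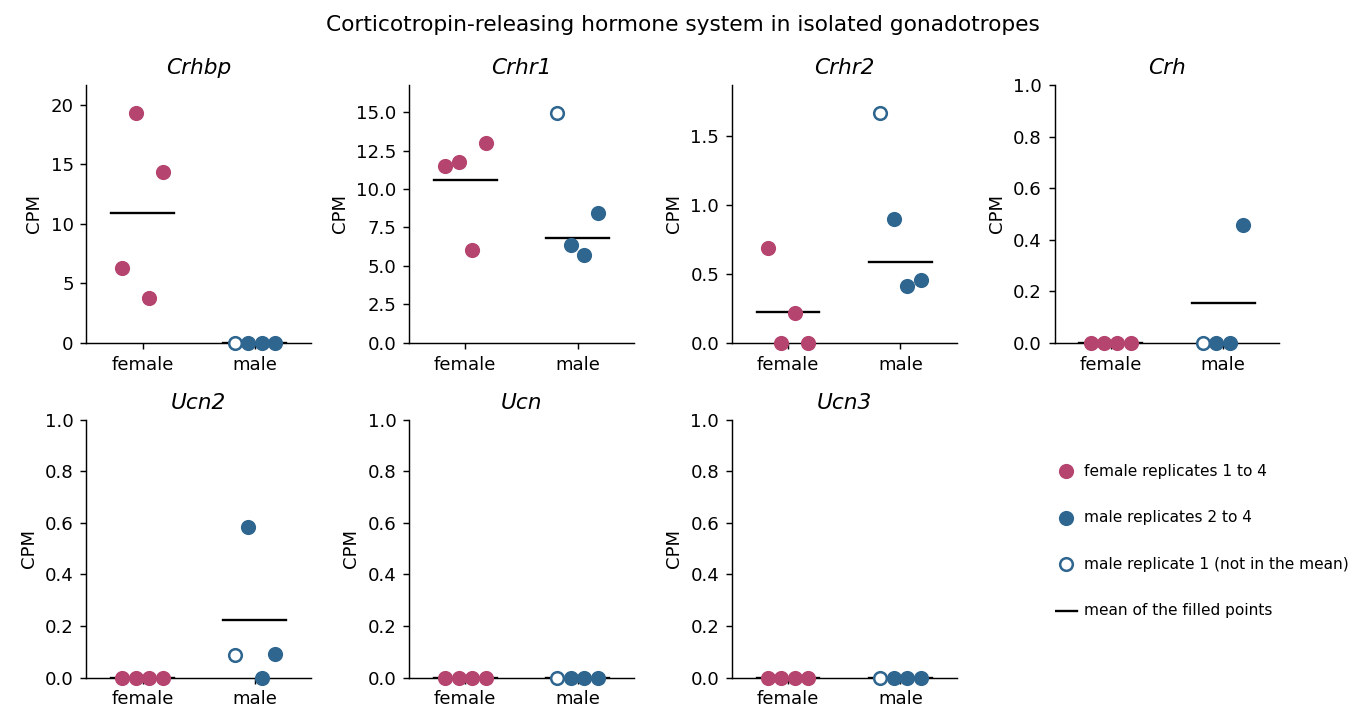
Level of each of the 7 genes in every sample, in CPM (y axis, linear, a separate scale per gene), for females and males. Filled points are female replicates 1 to 4 and male replicates 2 to 4, open points are male replicate 1, and lines are means of the filled points; *Crhbp* lay between 3.76 and 19.3 CPM in females and at 0 in all 4 males, whereas *Crhr1* and *Crhr2* overlapped between the sexes.

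A 0 in this table need not mean a lack of the transcript, since some widely used genes were listed at 0 in a single sample. *Rab35*, a small GTPase of membrane traffic chosen here after its values were seen, had 849 to 1688 counts in 7 samples and 0 in male replicate 3. Of the 11423 entries with at least 100 counts in 7 or more samples, 17 had 0 in the other sample. A 0 throughout one sex was rarer. Of the 11133 entries with at least 100 counts in every female, 16 were at 0 in 1 male, 3 in 2 males, 1 in 3 males, and 1 in all 4 males, which was *Crhbp*. Conversely, 11051 entries had at least 100 counts in every male, of which 15 were at 0 in 1 female, 2 in 2 females, 6 in 3 females and 0 in all 4 females. When the minimum was 50 counts in every female, 3 entries were at 0 in all 4 males: *Crhbp*, the galanin receptor gene *Galr1* and the phosphatase inhibitor gene *Ppp1r1c*. With the same minimum in every male, 1 entry was at 0 in all 4 females. At a minimum of 10 counts these numbers were 15 and 6. For 2 genes near *Crhbp* on chromosome 13, the values were as follows. *Aggf1*, which encodes an angiogenic factor, was 43.4 to 53.5 CPM in females and 27.9 to 49.9 CPM in the 4 males. *F2rl1*, which encodes a protease-activated receptor, was 2.01 to 7.45 CPM in females and 6.26 to 7.75 CPM in the 4 males. Both were also chosen after their values were seen.

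*Crhr1* (ENSMUSG00000018634, chr11:104132855-104175523, plus strand), the receptor through which corticotropin-releasing hormone acts in the anterior pituitary, was present in all 8 samples. The female replicates had 269, 239, 198 and 300 counts, or 11.5, 11.7, 6.06 and 13.0 CPM. Male replicates 2 to 4 had 164, 152 and 184 counts, or 6.37, 5.69 and 8.44 CPM. Female replicates 1, 2 and 4 were above these males, and female replicate 3 lay among them. The mean was 10.6 ± 3.08 CPM in females (SD, n = 4) and 6.84 ± 1.43 CPM in males (SD, n = 3). The log2 fold change of females over males in the edgeR fit was 0.66 (SE 0.31), with a 95% interval from −0.07 to 1.38. Male replicate 1 had 341 counts, or 15.0 CPM, the highest value among the 8 samples, and with all 4 males the mean in males was 8.87 CPM and the log2 fold change was 0.25 (SE 0.37).

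*Crhr2* (ENSMUSG00000003476, chr6:55090049-55133016, minus strand), the receptor preferred by urocortins 2 and 3, was present at a much lower level. Female replicates 1 and 3 had 16 and 7 counts, or 0.685 and 0.214 CPM, and female replicates 2 and 4 had 0. Male replicates 2 to 4 had 23, 11 and 10 counts, or 0.894, 0.412 and 0.459 CPM. Female replicate 1 was inside the range of the males, so the sexes overlapped. The log2 fold change was −1.35 (SE 1.34), with a 95% interval from −4.50 to 1.81, so neither direction was resolved. Without female replicate 1 it was −2.82, and per count of the gonadotrope markers its direction turned, to 0.18. The highest value was again in male replicate 1, with 38 counts or 1.67 CPM.

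The ligand genes were at or close to 0. *Crh* (ENSMUSG00000049796, chr3:19693401-19695396, minus strand), which encodes the hypothalamic releasing hormone, had 10 counts in male replicate 4, or 0.459 CPM, and 0 in the other 7 samples. *Ucn2* (ENSMUSG00000049699, chr9:108986010-108987164, plus strand), which encodes urocortin 2, had 15 counts in male replicate 2, or 0.583 CPM, 2 counts each in male replicates 1 and 4, and 0 in male replicate 3 and in all 4 females. *Ucn* (ENSMUSG00000038676, chr5:31138063-31138829, minus strand) and *Ucn3* (ENSMUSG00000044988, chr13:3940688-3945349, minus strand), which encode urocortins 1 and 3, had 0 counts in all 8 samples. A count of 0 allows a level of up to 0.0918 to 0.147 CPM, depending on the library. No ligand gene was above this limit in more than 1 sample.

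Of the 7 members, 3 passed the filter on low counts, *Crhbp*, *Crhr1* and *Crhr2*, and *Crhbp* did so through the females alone. To compare levels between genes, CPM was divided by the length of the merged exons in kilobases. On this scale the level of *Crhbp* in females was 6.08 ± 4.00 CPM per kb (SD, n = 4) and that of *Crhr1* was 4.30 ± 1.25, so that the binding protein and the receptor could not be ordered beyond their spread. In male replicates 2 to 4, *Crhr1* was 2.78 ± 0.58 CPM per kb (SD, n = 3). *Crhr2* was far lower in both sexes, with 0 to 0.134 CPM per kb in females and 0.0806 to 0.175 CPM per kb in males. Percentiles were taken on the mean CPM, not divided by length. Among the 29527 entries with a count in females, *Crhbp* was at percentile 65.9 and *Crhr1* at percentile 65.5. Among the 27960 entries with a count in male replicates 2 to 4, *Crhr1* was at percentile 58.7.

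**Figure D2:**
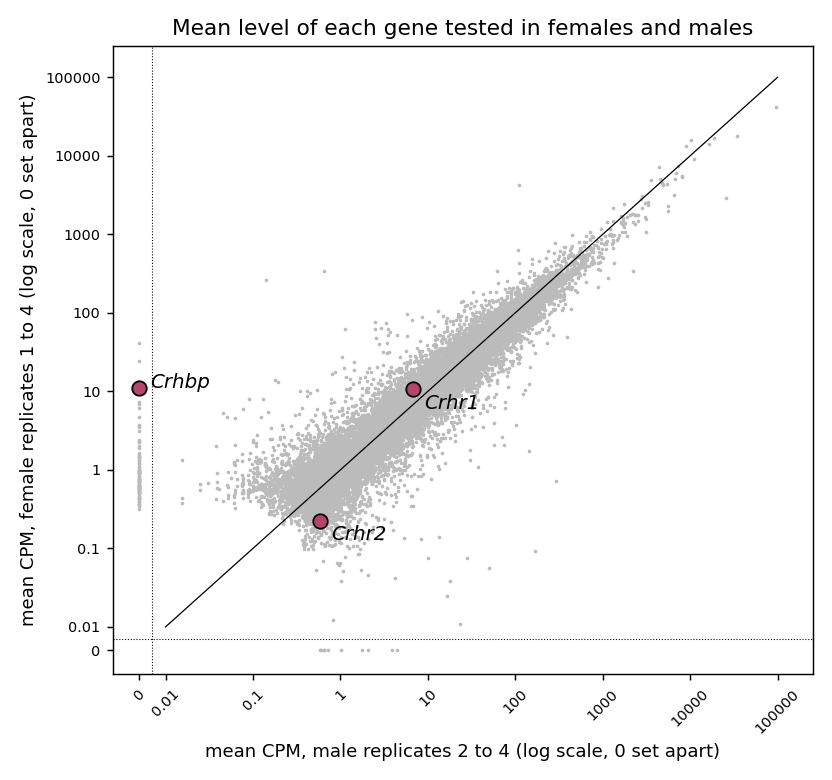
Mean level of each of the 20152 genes tested in male replicates 2 to 4 (x axis) and female replicates 1 to 4 (y axis), in CPM on log axes with 0 set apart by dotted lines; the diagonal marks equal means. *Crhbp* lay at 10.9 CPM in females and 0 in males, while *Crhr1*, at 10.6 and 6.84 CPM, and *Crhr2* lay within the cloud of other genes.

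Because the summed level of gonadotrope markers differed between the sexes, levels were also expressed relative to markers of these cells. *Crhbp* was 2.93, 6.98, 1.08 and 4.78 counts per 10000 counts of the 5 gonadotrope markers in the female replicates. The order of the females was the same as in CPM, and the males remained at 0. *Crhr1* was 5.35, 4.23, 1.74 and 4.32 counts per 10000 of these marker counts in females and 0.933, 0.845 and 1.10 in male replicates 2 to 4, so that on this scale the females did not overlap with these males, although male replicate 1, at 5.24, lay among the females. The difference in the mean was 2.03 on the log2 scale. The sum of the markers, the denominator of this ratio, was itself higher in each of these males than in any female. *Nr5a1*, 1 of these 5 markers, went the other way, at 863 to 1263 CPM in females against 590 to 794 CPM in male replicates 2 to 4. Relative to *Nr5a1* alone, *Crhr1* was 1.03 ± 0.381 counts per 100 counts in females (SD, n = 4) and 0.998 ± 0.380 in males (SD, n = 3), and the sexes overlapped. Relative to *Tbx19*, a transcription factor that defines corticotropes and melanotropes, *Crhr1* was 39.7 ± 13.0 counts per 100 counts in females (SD, n = 4) and 17.7 ± 3.0 in males (SD, n = 3). The lowest female, at 22.0, was just above the highest of these males, at 21.1. Male replicate 1 was among the females on this scale, at 43.5. Relative to *Pomc*, the other main corticotrope marker, the sexes overlapped, with 489 to 992 counts of *Crhr1* per 1000000 counts in females and 292 to 566 in male replicates 2 to 4. They also overlapped relative to *Avpr1b*, *Lhb* or *Gnrhr*, but not relative to *Fshb*, with 2276 to 8045 counts per 1000000 counts in females and 186 to 495 in these males. In CPM, *Tbx19*, *Pomc* and *Avpr1b*, the vasopressin receptor of corticotropes, each overlapped between the sexes.

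**Figure D3:**
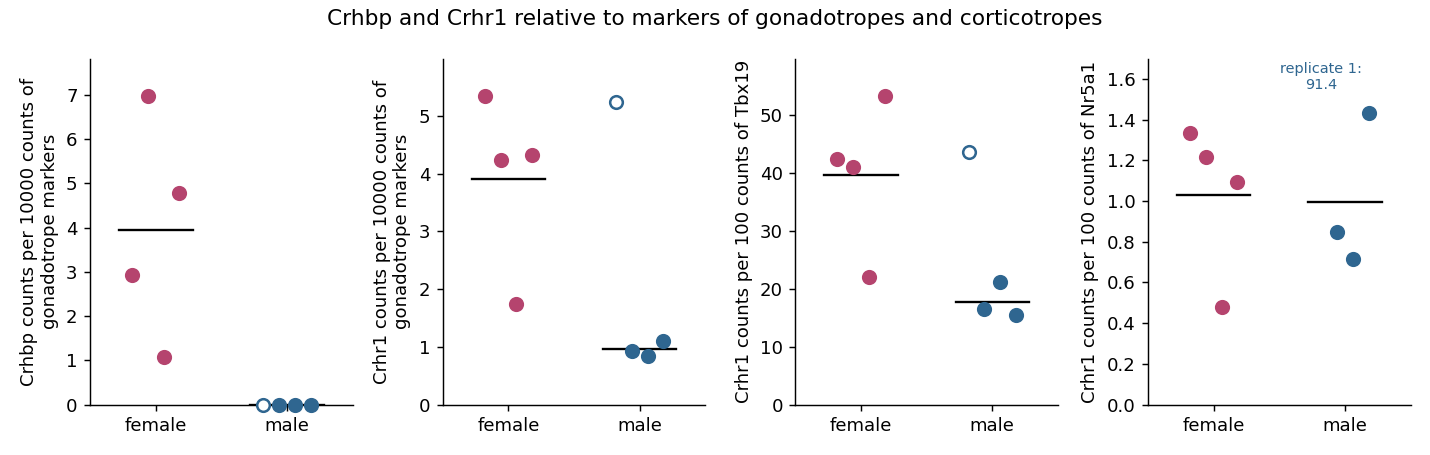
Counts of *Crhbp* and *Crhr1* relative to counts of marker genes in each sample (y axes, linear, from 0): per 10000 counts of the gonadotrope markers, and for *Crhr1* also per 100 counts of *Tbx19* and of *Nr5a1*. Filled points are female replicates 1 to 4 and male replicates 2 to 4, open points are male replicate 1 (off the scale at 91.4 in the panel for *Nr5a1*), and lines are means of the filled points; the filled points of the sexes overlapped for *Crhr1* only in the panel for *Nr5a1*.

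Other genes of the pathway were taken from 7 lists of 66 genes by role, and 61 of them passed the filter and were tested. A gene was called where the adjusted p of edgeR's quasi-likelihood test (Benjamini-Hochberg over all genes tested) was under 0.05, and 4 of the 61 were called, against 2.34% of all 20152 genes tested. Of these, 2 were higher in females and 2 were higher in males, where 1.35% and 0.983% of all genes were called. Over all genes, 273 of the 471 called were higher in females, and with library size as the only scaling 675 of 808 were. The median log2 fold change over the 61 genes was 0.03, the same as over all genes tested. The samples of the sexes did not overlap for 21 of the 61, or 34.4%, against 22.5% of all genes tested.

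In the list of receptor coupling and cyclic AMP, 2 of 26 genes were called, 1 higher in each sex. *Adcy8*, a calcium-stimulated adenylyl cyclase, was higher in females, at 3.57 ± 1.41 CPM (SD, n = 4) against 0.536 ± 0.230 CPM in males (SD, n = 3), with a log2 fold change of 2.74 (SE 0.53, edgeR adjusted p = 0.0494). It was between 1.74 and 5.20 CPM in the females and at most 0.712 CPM in male replicates 2 to 4. Male replicate 1, at 0.219 CPM, was below all of these. *Prkar1a*, a regulatory subunit that holds protein kinase A inactive until cyclic AMP binds, was higher in males, at 930 ± 146 CPM (SD, n = 3) against 449 ± 91.0 CPM in females (SD, n = 4), with a log2 fold change of −1.03 (SE 0.19, edgeR adjusted p = 0.0494). Its lowest male among replicates 2 to 4 was at 769.6 CPM and its highest female at 548 CPM. Male replicate 1, at 398 CPM, lay inside the range of the females. The other 24 genes of this list, among them the G protein subunits, the other cyclases, the *Crtc* coactivators and the *Pde4* phosphodiesterases, did not pass the test.

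Of the 5 response genes, immediate early genes that cyclic AMP induces, 1 was called. *Nr4a2*, an orphan nuclear receptor of the Nur family, was higher in females, at 151 to 242 CPM against 77.0 to 95.9 CPM in male replicates 2 to 4, with a log2 fold change of 1.09 (SE 0.20, edgeR adjusted p = 0.046). Male replicate 1 was at 256 CPM, above every female. Among the 11 genes of glucocorticoid action and feedback, 1 was called. *Tsc22d3*, which encodes the glucocorticoid-induced leucine zipper protein GILZ, was higher in males, at 318 to 397 CPM in replicates 2 to 4 against 147 to 187 CPM in females, with a log2 fold change of −1.13 (SE 0.14, edgeR adjusted p = 0.0201). In male replicate 1 it was 2.15 CPM. These 4 calls were close to the threshold. *Adcy8*, *Prkar1a* and *Nr4a2* were called in 0 of the 7 fits that left out 1 replicate, with adjusted p between 0.0573 and 0.154. *Tsc22d3* lost its call without female replicate 2 (adjusted p = 0.0561), without male replicate 2 (0.0713) or without male replicate 4 (0.0526), and none of the 4 was called with all 8 samples.

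None of the genes in the other 4 lists passed the test. For receptor desensitization, the largest of 9 fold changes was that of *Arrb2*, which encodes β-arrestin 2, with 15.2 ± 9.83 CPM in females (SD, n = 4) against 1.92 ± 0.160 CPM in males (SD, n = 3) and a log2 fold change of 3.0 (SE 0.60, edgeR adjusted p = 0.053). It passed the threshold without female replicate 2 (edgeR adjusted p = 0.0423) and with library size as the only scaling (0.0407). It also passed with at least 10 counts in every sample (0.0443) and with DESeq2 (2.35e-05). With the other settings its edgeR adjusted p was between 0.0512 and 0.243. It was 0.157 with all 8 samples. *Rgs4*, a regulator of G protein signaling, had a log2 fold change of −1.61 (SE 0.42, edgeR adjusted p = 0.0921). For peptide processing, *Pcsk1*, the convertase that cuts POMC into ACTH, had the largest fold change, with 210 ± 111 CPM in females (SD, n = 4) against 875 ± 183 CPM in males (SD, n = 3) and a log2 fold change of −2.03 (SE 0.44, edgeR adjusted p = 0.063). *Pam*, the peptide amidating enzyme, had −0.92 (SE 0.69). DESeq2 also called *Rgs4* and *Pcsk1*, both higher in males. For corticotrope output, *Tbx19* had a log2 fold change of −0.55 (SE 0.24) and *Neurod1*, a transcription factor of corticotropes, 0.36 (SE 0.23). For the partners of releasing factors, *Ramp2*, an accessory protein of peptide receptors, had −1.49 (SE 2.0) and *Avpr1b* 0.08 (SE 0.34). *Arrb2*, *Ramp2* and *Neurod1* shared a locus with another gene in the table, and *Pam* had 2 entries of its own, so that reads could have been divided between entries.

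**Figure D4:**
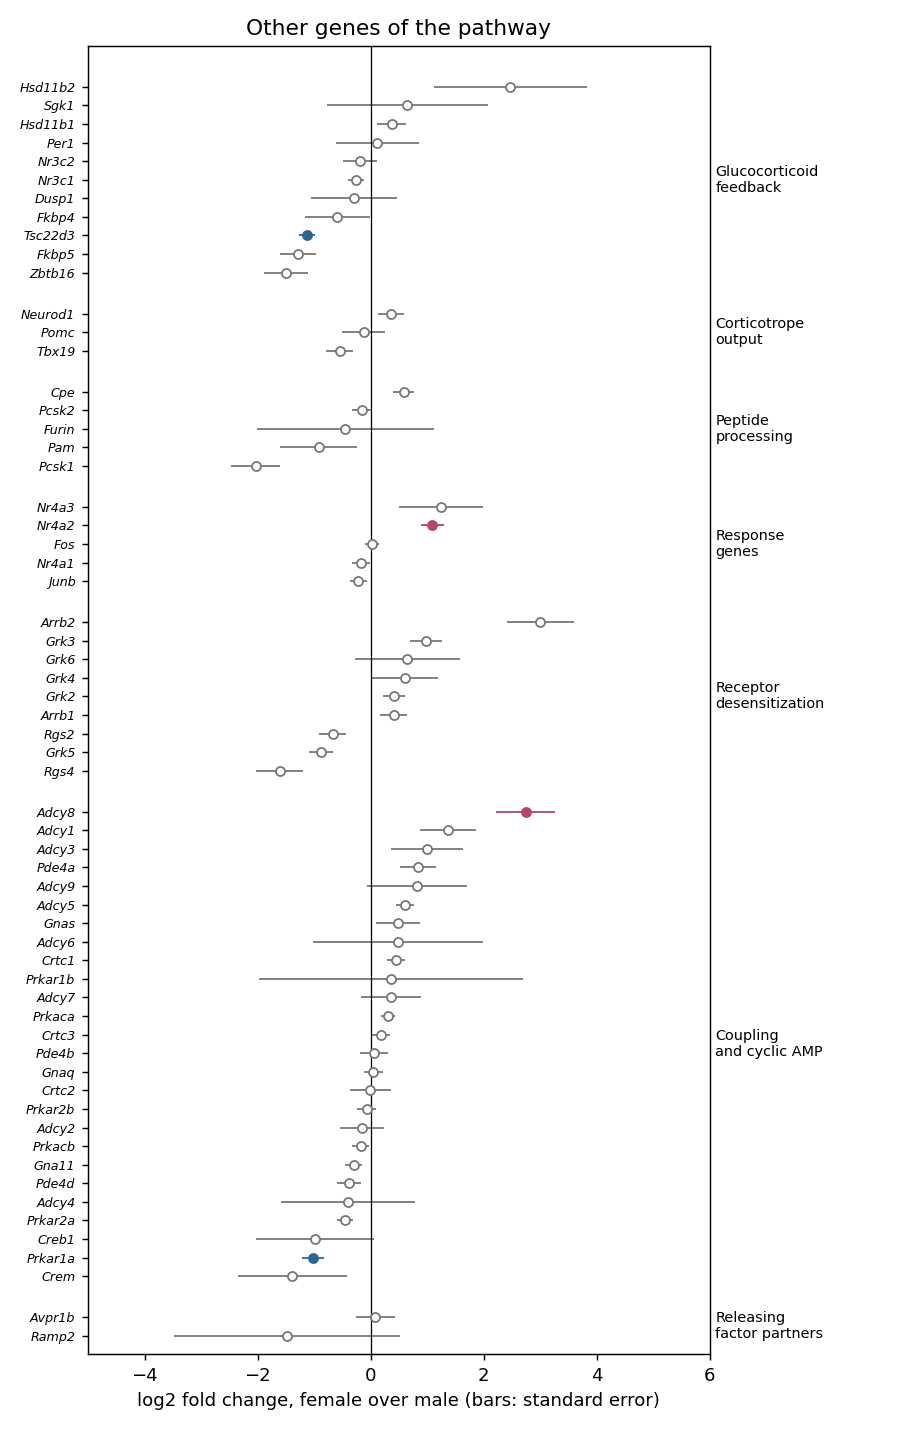
Log2 fold change of females over males (x axis) with its standard error (bars) in the edgeR fit, for the 61 pathway genes tested, grouped by list. Filled points are the 4 genes called, *Adcy8* and *Nr4a2* to the right of 0 and *Prkar1a* and *Tsc22d3* to the left, and open points are genes that did not pass the test.

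The genes whose pattern was most like that of *Crhbp* were ranked by the Pearson correlation of log2(CPM + 1) over the 8 samples, among 15160 genes that passed the filter and had no provisional name. The correlation is a description over samples that share their sex and library, and it was above 0.9 for 54 genes. The first was *Foxo1*, a forkhead transcription factor, with r = 0.969. It was 160, 188, 160 and 178 CPM in the female replicates and 98.7, 99.0, 90.6 and 111 CPM in the male replicates. *Prtn3*, a neutrophil serine protease, followed with r = 0.963, at 0.857 to 1.52 CPM in females, and it was 0.263 CPM in male replicate 1 and 0 in the remaining males. *Nemf*, a factor of ribosome quality control, had r = 0.961, *Cers1*, a ceramide synthase, 0.961, and *Ctxn1*, which encodes cortexin 1, 0.960. All 5 were higher in every female than in every male, which a ranking by likeness to a gene at 0 in every male favours. *Cers1* shared its locus with another gene in the table, so that reads could have been divided between entries. *Crhbp* differed from *Foxo1*, *Nemf* and *Ctxn1*, which had at least 44.8 CPM in each male. Of the 5, only 1 remained among the first 5 when male replicate 1 was left out. None of the 5 gonadotrope markers ordered the females as *Crhbp* did (replicates 2, 4, 1 and 3 from the highest). *Lhb* and *Gnrhr* were lowest in replicate 2, where *Crhbp* was highest, and *Cga* and *Nr5a1* were highest in replicate 3, where *Crhbp* was lowest. *Fshb*, the β subunit of FSH, was 1432, 3105, 1398 and 5708 CPM in female replicates 1 to 4, so that it was highest in replicate 4 and lowest in replicate 3.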

How the data were processed

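The authors deposited 1 table with the counts of each gene in 8 samples, not normalized. Per the labels and the methods, reads were processed with cutadapt, mapped to mm10 (GRCm38) with STAR and counted with featureCounts at default parameters, which do not use strand. The annotation is not given in the sources used here. Many entries carry names of assembled loci beside the gene symbol. Female replicates 1 to 4 were set against male replicates 2 to 4 by the quasi-likelihood test of edgeR (version 4.0.16, R 4.3.3), with TMM factors, filterByExpr and a Benjamini-Hochberg threshold of 0.05, after a test on simulated data. Male replicate 1 was left out, as in the study. CPM used TMM factors over 8 samples. Coordinates and exon lengths came from GENCODE M21. The members and lists were chosen with earlier results of these data known. Named genes were the members, list genes past the threshold or the 2 with the largest fold change in lists with none, and the 5 most like *Crhbp*. Alternatives were DESeq2 (version 1.42.0), other scalings, filters, samples and marker denominators, a replicate block, summed loci and leaving out each replicate. The standard error was taken from the F statistic. Symbols with several entries, such as *Pam*, were represented by the entry with most counts.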

Additional observations from a re-analysis of the deposited data

Results flagged for a closer look

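In 17 groups of 4 samples, for the 7 members and the genes named beside them, a single sample lay far from the other 3 in 3 cases, and chance alone marks about 1 in 20 groups. *Crh* was 0.459 CPM in male replicate 4, from 10 counts, and 0 in the other males. *Ucn2* was 0.583 CPM in male replicate 2, from 15 counts, while the other males were between 0 and 0.0917 CPM. *Prtn3* was 0.263 CPM in male replicate 1, from 6 counts, and 0 in the other males. All 3 values rest on few counts.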

How the results depend on the processing

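The lower bound of *Crhbp*, on the log2 scale, was 6.06 to 6.77 with 1 replicate left out and 7.84 per count of gonadotrope markers. The difference of *Crhr1* was 0.52 to 0.83 with 1 replicate left out, 0.25 with all 8 samples, 2.03 per count of gonadotrope markers, 1.17 per *Lhb*, 1.5 per *Gnrhr*, 1.16 per *Tbx19* and 0.048 per *Nr5a1*, where the sexes overlapped and no direction was resolved. The denominators *Tbx19* and *Nr5a1* were chosen after seeing the data. That of *Crhr2* was −2.82 to −0.96 with 1 replicate left out, −3.65 with the replicate block, −0.20 per *Gnrhr* and turned to 0.18 per count of gonadotrope markers. It had no value where the filter removed the gene (all 8 samples, a minimum of 10 counts throughout, without female replicate 3 or male replicate 2). With all 4 males the male mean was 8.87 CPM for *Crhr1* and 0.858 CPM for *Crhr2*. The bound of *Crhbp* needs no fit, so the block, filters and summed loci gave it no other value.

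Over all genes, 471 were called, against 2329 with DESeq2, 808 by library size alone (where the median log2 fold change moved to 0.24), 177 with no filter beyond 1 count, 67 with all 8 samples and 88 to 171 with 1 replicate left out. For the pathway lists, the 2 genes called higher in females became 5 with DESeq2, 4 by library size, 0 with no filter, 0 with all 8 samples and 0 to 1 with 1 replicate left out. The 2 called higher in males became 8, 1, 1, 0 and 0 to 1 in the same order. With the replicate block, edgeR called 0 genes over the whole table and 0 in the lists in either direction. In that fit, 2954 genes had an unadjusted p under 0.05. Same-numbered samples showed little shared deviation from their group means (correlations of −0.0267, −0.00212 and −0.00163). The labels do not say whether the replicate numbers pair the samples, and these correlations cannot settle it. Of the genes most like *Crhbp*, 1 was shared without male replicate 1 and 2 with Spearman's correlation, where ties left 14 genes at or above the value of the fifth, so that this number says nothing of stability. The cause of these changes was not tested.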
